A study of Arabidopsis thaliana with 8 samples.

Results

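The 35 genes described here code for the enzymes that turn phenylalanine into phenylpropanoids, flavonols and anthocyanins, for the enzymes and the carrier that modify and store these compounds, and for the transcription factors that control them. They were taken by gene identifier from a list of the pathway, which includes AT1G03495 and AT1G03940 as genes that give rise to siRNAs in *fry1*. The list sets no threshold on the counts but was drawn up with earlier results of these data known, and its genes are 35 of the 37361 genes counted in *Arabidopsis thaliana* seedlings. The list holds 7 genes of the general phenylpropanoid steps, 5 of the early flavonoid steps including flavonol synthase, 8 of the late anthocyanin steps, 3 flavonol glycosyltransferases, 8 activators of the MYB, bHLH and WD40 classes, the repressor *MYBL2* and 3 MYB activators of flavonol genes. Of these, 30 had enough reads to be tested, and all 35 have the same exon length in TAIR10.1 as in the deposited tables.

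The transcripts were measured by RNA-seq in seedlings of the Col-0 ecotype, in 2 libraries for each of 4 genotypes. WT carried no mutation, and the other genotypes all carried *fry1-6*, a T-DNA insertion in *FRY1*, either alone or together with *rdr6-11* or with *rdr1-1*. Each mutation was represented by a single line, so a change seen in a genotype is that of the line. FRY1 is a phosphatase that removes an inhibitor of the 5′-3′ exoribonucleases, while the polymerases RDR6 and RDR1 copy RNA into the double-stranded precursors of siRNAs. The labels give an age of 12 days, a stage of 2 weeks, a temperature of 23 °C and 16 h of light, whereas the methods of the study describe shorter days and a lower temperature. For the *fry1-6 rdr1-1* libraries the genotype field names the other double mutant, and they were grouped by their titles. The RNA came from seedlings and not from single cell types, so fewer cells of a type and less RNA per cell cannot be told apart in any value below.

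As background, PAL, C4H and 4CL convert phenylalanine into coumaroyl-CoA, which lignin, sinapate esters and flavonoids all draw on. Chalcone synthase (CHS) makes the first flavonoid, the early enzymes CHI, F3H and F3′H give dihydroflavonols, and there the path splits: FLS1 leads to colourless flavonols, whereas DFR and LDOX lead to anthocyanidins, which are then glycosylated, acylated and moved to the vacuole. The late genes are switched on by a complex of a MYB factor (such as MYB75), a bHLH factor (TT8, GL3 or EGL3) and the WD40 protein TTG1, and MYBL2 is a small MYB protein that competes within this complex. The early genes and *FLS1* respond instead to MYB12, MYB11 and MYB111. In seedlings the path is known for its response to light, sugar, cold and nutrient supply.

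The libraries held between 15069329 and 26285519 counts. All levels below are CPM, the counts of a gene scaled to the size of its library after TMM normalization, and a gene was called when the quasi-likelihood test of edgeR gave it a p under 0.05 after Benjamini-Hochberg adjustment over the 22744 genes tested. With 2 libraries per genotype, no exact permutation test over samples can give a two-sided p under 0.333. *FRY1* counts were not lowered in the mutants (27.5 to 49.1 CPM in WT and 55.0 to 150.8 CPM in the 6 libraries labelled with *fry1-6*), *RDR6* had 12.1 and 20.7 CPM with the *rdr6-11* label and 11.0 to 39.5 CPM without it, and *RDR1* had 28.8 and 19.5 CPM with the *rdr1-1* label and 9.38 to 38.9 CPM without it. The counts carry no position within a gene, so the mutated genes neither bear out the labels nor refute them, and every direction below is that of the libraries as labelled. Chloroplast genes took 0.0342 to 0.173% of the counts in the WT and *fry1-6* libraries and 2.29 to 2.80% in the double mutants, so in comparisons of a double mutant with WT or *fry1-6* the genotype and whatever set that share apart cannot be told apart. Of the 5 leaf markers all were tested, and their summed level was 26270 to 50780 CPM across the libraries. Of 7 root markers 5 were tested, with sums over the 7 of 2.76 to 6.65 CPM in WT and 6.17 to 14.6 CPM in the mutants, and *CASP2* was called higher in *fry1-6 rdr6-11*, a call lost without either WT library (adjusted p = 0.0830 and 0.0662 in edgeR). The 7 seed coat markers summed to 3.68 to 4.94 CPM in WT and 9.01 to 16.4 CPM in the mutants. There *AHA10* was called higher in all 3 genotypes. *BAN*, an anthocyanidin reductase, was called higher in the *fry1-6* single mutant and the *rdr6-11* double mutant. Its counts were 0 and 0 (WT), 10 and 11 (*fry1-6*), 9 and 10 (*fry1-6 rdr6-11*), 5 and 4 (*fry1-6 rdr1-1*). Only mutant libraries could carry *BAN* past the filter on low genes (minimum count 10), so its calls are not independent of that filter. The defining marker *TT1* was at 0 in every library, and *TT2*, *TT10* and *TT16* had between 0 and 3 counts. The call of *BAN* in *fry1-6* was lost without either WT library and that of *AHA10* in *fry1-6 rdr1-1* without WT replicate 2 (edgeR adjusted p = 0.0540, 0.0672 and 0.0957). The part of root or seed coat tissue in the results below was not tested.

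The WT libraries differed from each other more on the members than over all genes. On the scale of log2(CPM + 0.5), WT replicate 1 was higher than WT replicate 2 for 29 of the 30 tested members, by a median of 1.26, and by more than 1 for 20 of them. Over the 20753 genes with a mean of at least 1 CPM the same median was 0.0556, and 6.40% of them differed by more than 1. Between the *fry1-6* libraries the median was 0.46, with 27 members higher in replicate 1, and it was -0.155 for *fry1-6 rdr6-11* and -0.0892 for *fry1-6 rdr1-1*. Because of this spread, a mutant could lie below one WT library and above the other. The *fry1-6* mean was below WT replicate 1 for 26 members and below WT replicate 2 for 8, the *fry1-6 rdr6-11* mean for 26 and 8, and the *fry1-6 rdr1-1* mean for 23 and 3. Chloroplast and mitochondrial genes took a larger share of the counts in replicate 1 than in replicate 2 in WT (0.161 against 0.0342% for the chloroplast) and in *fry1-6* (0.173 against 0.0509%), and their part in these differences was not tested.

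**Figure D1:**
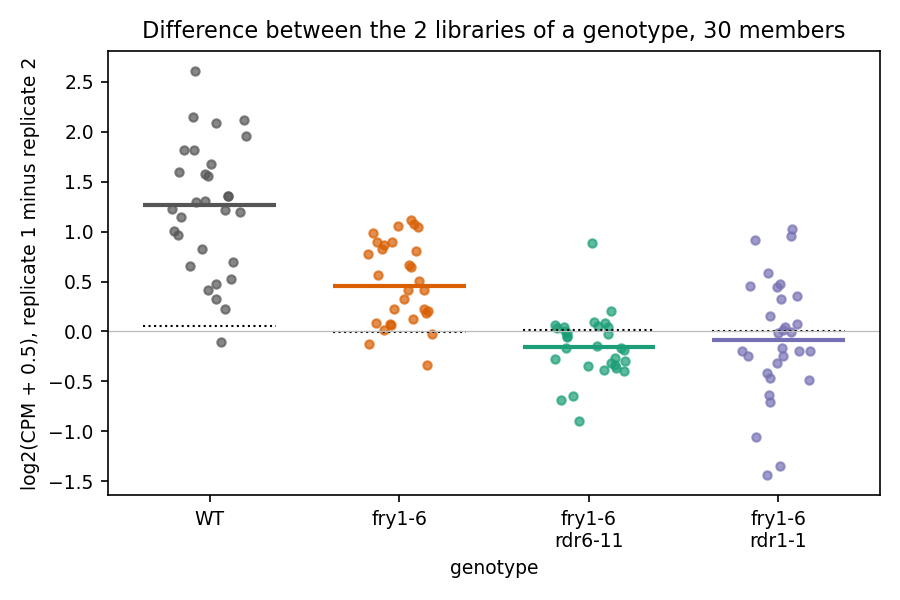
Difference between replicates 1 and 2 of each genotype, as log2(CPM + 0.5), for the 30 tested members (points); coloured lines are the medians of the members and dotted lines those of the 20753 genes with a mean of at least 1 CPM. The WT members lie around a median of 1.26, whereas the medians of the double mutants are -0.155 and -0.0892.

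Against WT, 3 of the 30 tested members were called in *fry1-6* (2 higher, 1 lower), where 5.42% of all tested genes were called (5.03% higher and 0.387% lower). In *fry1-6 rdr6-11* 5 were called (2 higher, 3 lower), where the share over all tested genes was 18.9% (10.9% higher and 7.94% lower), and in *fry1-6 rdr1-1* 2 were called, both higher, against 7.97% of all tested genes (5.90% higher and 2.07% lower). Against *fry1-6*, *fry1-6 rdr6-11* had 1 member higher and 1 lower, beside 4.76% of all tested genes (1.83% higher and 2.93% lower). The comparison of *fry1-6 rdr1-1* with *fry1-6* called 0 members in edgeR, beside 0.264% of all tested genes (0.207% higher and 0.0572% lower). DESeq2 called 2 members there, beside 2.92% of the genes it gave an adjusted p. In edgeR 5 members were at an unadjusted p under 0.05. The share of all genes at that threshold was not computed, so this count cannot be weighed. Between the double mutants 1 member was called, lower in *fry1-6 rdr6-11*, beside 1.10% of all tested genes (0.101% higher and 1.00% lower). The members that carried these calls were the acyltransferase genes AT1G03495 and AT1G03940, *DFR*, *F3H*, *FLS1* and *MYBL2*, and the other 24 tested members passed in no comparison. The median log2 fold change of the 30 members against WT was -0.41 for *fry1-6*, -0.43 for *fry1-6 rdr6-11* and 0.11 for *fry1-6 rdr1-1*, beside medians of -0.03, 0.04 and 0.05 over all tested genes. These 3 comparisons share the WT libraries described above. Against *fry1-6* the median of the members was 0.08 for *fry1-6 rdr6-11* and 0.44 for *fry1-6 rdr1-1*. For *fry1-6 rdr6-11* against *fry1-6 rdr1-1* it was -0.38. The median over all tested genes was 0.02 in each of these comparisons without WT, which also share libraries with each other.

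Per kilobase of exon, the WT means of the members ran from *MYBL2* (45.9 CPM per kb), *C4H* (32.3), *CHS* (29.8), *4CL1* (25.1) and *PAL1* (24.6) at the top to *EGL3* (0.961), *TT8* (0.604), *MYB12* (0.394) and *GL3* (0.233) at the bottom of those tested. The ranges of the 2 WT libraries overlapped for 28 of the 29 neighbouring pairs in this order, all but *MYBL2* and *C4H*.

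**Figure D2:**
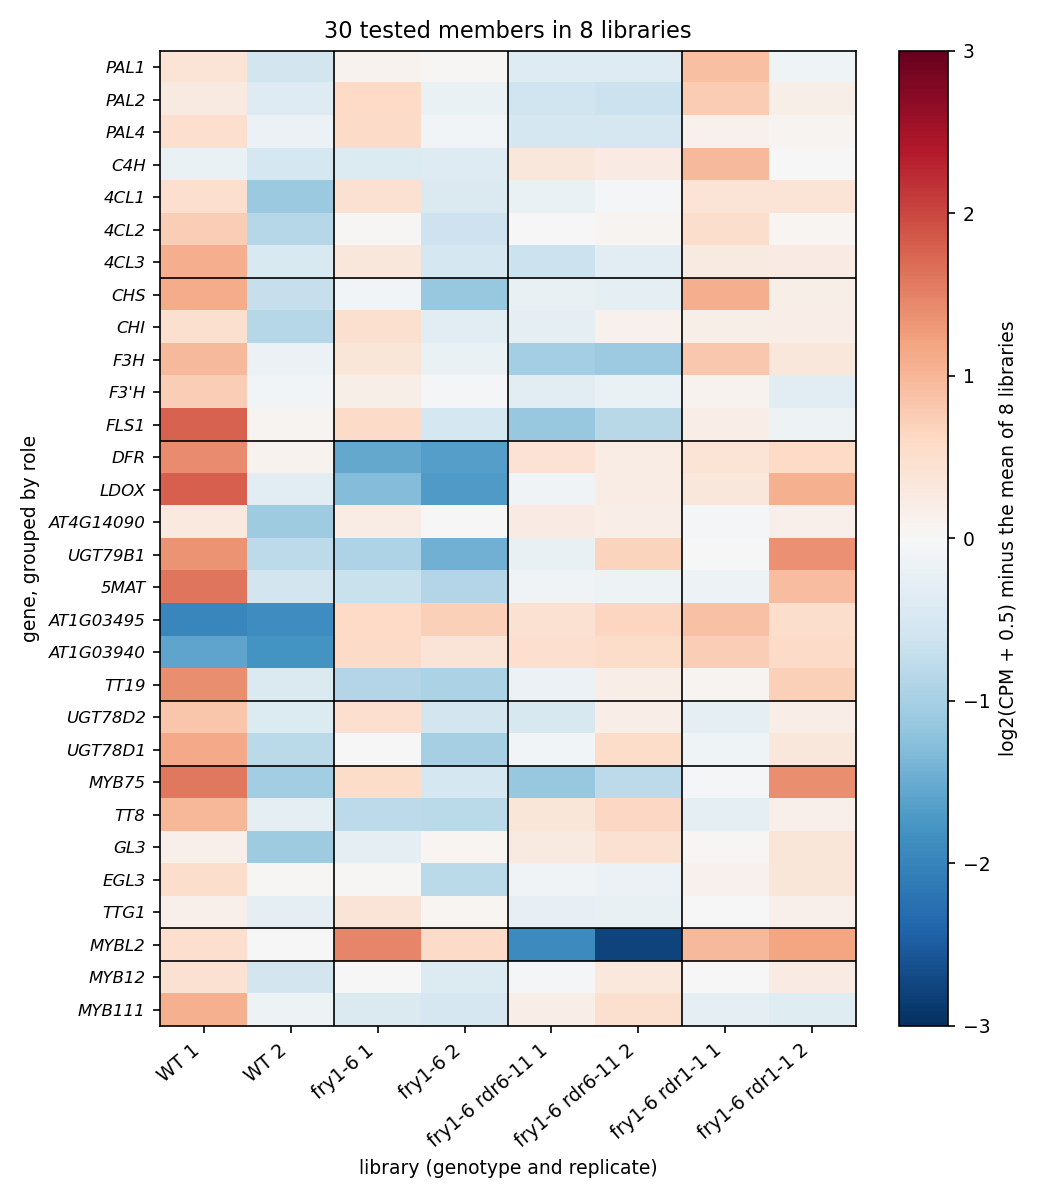
Levels of the 30 tested members in the 8 libraries, as log2(CPM + 0.5) minus the gene's mean over the libraries, with rows grouped by role and columns by genotype. WT replicate 1 is red in most rows, AT1G03495 and AT1G03940 are blue only in WT, *DFR* is bluest in *fry1-6* and *MYBL2* is bluest in *fry1-6 rdr6-11*.

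AT1G03495 and AT1G03940 rose in every genotype labelled with *fry1-6*, with or without an RDR mutation, and had the smallest adjusted p-values of the members in all 3 comparisons with WT. They are annotated as acyltransferases of the HXXXD type, the family that adds acyl groups to anthocyanins and other compounds. AT1G03495 lies at chr1:873166-874476 on the plus strand and AT1G03940 at chr1:1009228-1011145 on the minus strand (TAIR10.1), each with 1 exon. Both are on the study's list of genes that gave rise to siRNAs in *fry1* mutants, which was drawn from small RNA libraries not analysed here, and *4CL1* is the only other member on it.

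The copies are nearly identical, which bears on how their reads were counted. Of 1041 aligned coding bases 1016 (97.6%) were the same, although the coding sequence of AT1G03940 is 1410 bases long and that of AT1G03495 is 1041. The first 120 coding bases of each (RefSeq, TAIR10.1, 5′ to 3′ on the coding strand) are the window of that length with the most differences and are shown for that reason, with the 7 differing bases in capitals.
AT1G03940: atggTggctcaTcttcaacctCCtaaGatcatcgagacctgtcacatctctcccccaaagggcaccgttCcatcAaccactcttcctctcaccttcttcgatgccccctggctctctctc
AT1G03495: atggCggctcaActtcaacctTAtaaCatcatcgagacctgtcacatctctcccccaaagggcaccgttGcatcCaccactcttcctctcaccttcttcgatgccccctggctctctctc
The longest identical stretch, coding bases 76 to 295 of both genes (220 bases), is shown because a read that falls within it cannot be assigned to either copy by sequence.
Shared run: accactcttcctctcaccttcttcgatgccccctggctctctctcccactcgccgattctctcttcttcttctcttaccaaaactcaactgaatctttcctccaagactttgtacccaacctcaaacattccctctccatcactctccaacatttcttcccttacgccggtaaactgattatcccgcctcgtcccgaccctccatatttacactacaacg
Counted in words of 75 bases, 26.6% of the exon sequence of AT1G03495 and 26.0% of that of AT1G03940 occurs elsewhere in the genome, whereas the share was at most 2.16% for the other members. The authors kept reads with several positions and reported 1 position for each, so the split between the copies is uncertain while their sum is less so.

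AT1G03495 was at 5.44 and 5.89 CPM in the WT libraries, at 34.5 and 37.6 in *fry1-6*, at 31.6 and 35.5 in *fry1-6 rdr6-11* and at 42.5 and 33.2 in *fry1-6 rdr1-1*. AT1G03940 had 6.37 and 5.40 CPM in the WT libraries, 30.2 and 26.5 in those of *fry1-6*, 28.7 and 29.7 in those of *fry1-6 rdr6-11* and 33.9 and 30.3 in those of *fry1-6 rdr1-1*. For both genes the 2 WT libraries were close to each other and every mutant library was far above them. In edgeR, AT1G03495 rose by 2.67 ± 0.183 on the log2 scale (6.35-fold, SE from the fit, adjusted p = 0.00136) in *fry1-6*, by 2.57 ± 0.182 (adjusted p = 0.00118) in *fry1-6 rdr6-11* and by 2.74 ± 0.183 (adjusted p = 0.00109) in *fry1-6 rdr1-1*. AT1G03940 rose 4.82-fold, 4.97-fold and 5.45-fold in the same order (adjusted p = 0.00154, 0.00122 and 0.00118). Leaving out either WT library kept all 6 calls, with log2 fold changes between 2.15 and 2.80. The double mutants did not differ detectably from *fry1-6*: the log2 difference of AT1G03495 was -0.10 (95% interval -0.50 to 0.30) in *fry1-6 rdr6-11* and 0.07 (-0.33 to 0.47) in *fry1-6 rdr1-1*.

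Summing both copies, a treatment chosen after their values had been seen, gave a value that does not depend on the split between them. Of the words of 75 bases, 480 in AT1G03940 and 329 in AT1G03495 were repeated, so not all of these are shared by the copies. Reads of the remaining words could be placed outside both genes, and the sum may miss them. The sum was 11.8 and 11.3 CPM in WT and between 60.3 and 76.4 CPM in the 6 mutant libraries. It rose by 2.48 ± 0.155 in *fry1-6* (adjusted p = 0.00110), 2.44 ± 0.155 in *fry1-6 rdr6-11* (adjusted p = 7.84e-04) and 2.60 ± 0.156 in *fry1-6 rdr1-1* (adjusted p = 8.53e-04), as log2 fold changes in edgeR. The calls in *fry1-6* depended on the shared estimate of the spread: when only the WT and *fry1-6* libraries were fitted, edgeR called 0 of 21585 genes. The adjusted p was then 0.0582 for AT1G03495 and 0.0639 for AT1G03940, with log2 fold changes of 2.69 and 2.30. In that fit 4 members were at an unadjusted p under 0.05, a count with no share of all genes to set beside it. DESeq2 on all libraries called 5 members, beside 7.70% of the genes it gave an adjusted p. The nearest gene upstream of AT1G03495 on its strand, AT1G03490, is 259 bases away and had 0 CPM in all libraries, while AT1G03950, 5 bases upstream of AT1G03940, had 9.29 to 13.9 CPM. AT1G03940 also overlaps AT1G04227 on the opposite strand, which had 0.644 to 2.32 CPM.

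DFR, dihydroflavonol 4-reductase, is the enzyme that commits dihydroflavonols to anthocyanins, and its transcript was the only member called lower in *fry1-6* than in WT. *DFR* lies at chr5:17164093-17166032 on the minus strand, in 6 exons. It had 16.9 and 6.50 CPM in the WT libraries, 1.74 and 1.56 in those of *fry1-6*, 8.24 and 7.08 in those of *fry1-6 rdr6-11* and 8.15 and 9.41 in those of *fry1-6 rdr1-1*. Both *fry1-6* libraries, with 26 and 24 counts, lay below all others, and the double mutants lay within the range of WT, which WT replicate 1 sets at its upper end. Against WT replicate 1 alone, *DFR* was called lower in *fry1-6 rdr6-11* too (log2 fold change -1.14, edgeR adjusted p = 0.0247), and against WT replicate 2 alone it was not (0.23, adjusted p = 0.537). The transcript fell by 2.82 ± 0.464 on the log2 scale in *fry1-6* (7.05-fold lower, edgeR adjusted p = 0.0175). Without WT replicate 1 the log2 fold change was -1.98 (adjusted p = 0.0149) and without WT replicate 2 the log2 fold change was -3.35 (adjusted p = 0.00479). Without *fry1-6* replicate 1 or 2 the adjusted p was 0.109 or 0.101, and in a fit of only the genotypes compared it was 0.129.

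Relative to *fry1-6*, *DFR* was higher by 2.21 ± 0.458 in *fry1-6 rdr6-11* (4.64-fold, edgeR adjusted p = 0.0474) and by 2.41 ± 0.459 in *fry1-6 rdr1-1* (5.31-fold, adjusted p = 0.136). The first passed the threshold and the second did not, and the difference between the double mutants themselves was -0.20 (95% interval -1.17 to 0.78). The call in *fry1-6 rdr6-11* was lost when any of the 6 mutant libraries was left out (adjusted p = 0.0847 to 0.228), and also with the replicate number as a block (log2 fold change 2.21, adjusted p = 0.0610). Both comparisons against *fry1-6* share its libraries.

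**Figure D3:**
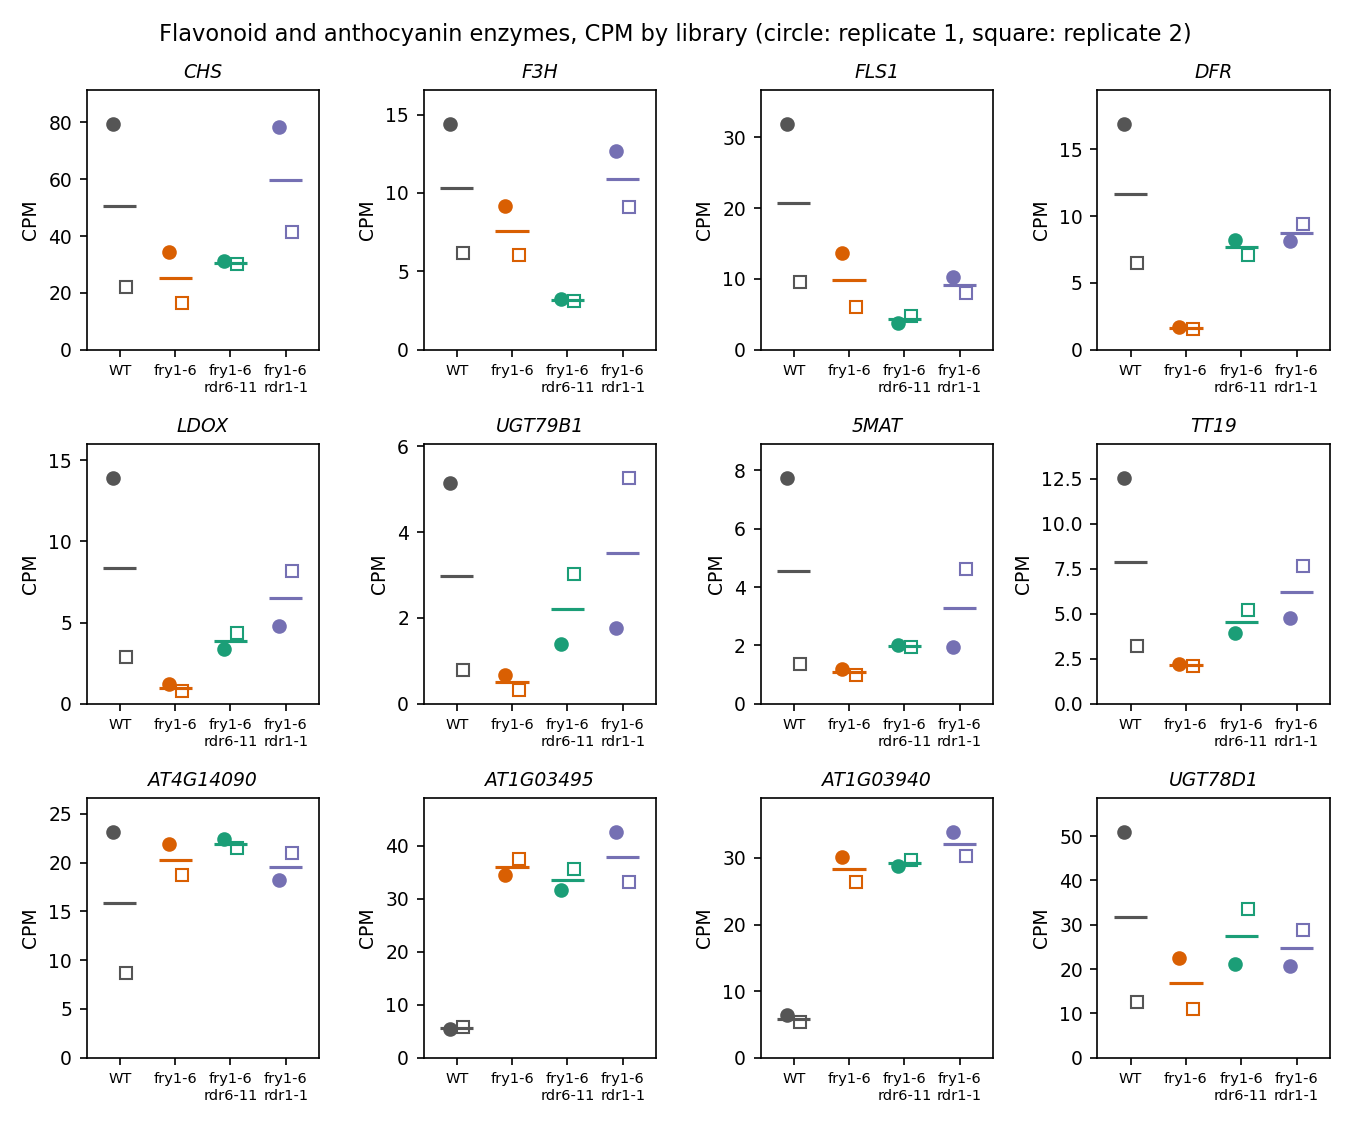
CPM of 12 enzyme and carrier genes in each library, with circles for replicate 1, squares for replicate 2 and horizontal lines for the mean of 2 libraries. *DFR* is at 1.74 and 1.56 CPM in *fry1-6* and at 6.50 or more elsewhere, and AT1G03495 and AT1G03940 are at 6.37 CPM or less in WT and at 26.5 CPM or more in every mutant library.

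The other late genes split into those with values like *DFR* and those without. *LDOX*, which makes anthocyanidins from the product of DFR, was at 13.9 and 2.88 CPM in the WT libraries, 1.20 and 0.780 in those of *fry1-6*, 3.40 and 4.37 in those of *fry1-6 rdr6-11* and 4.82 and 8.20 in those of *fry1-6 rdr1-1*. *TT19*, a glutathione transferase that carries anthocyanins to the vacuole, was at 12.5 and 3.19 CPM in the WT libraries, 2.21 and 2.08 in those of *fry1-6*, 3.91 and 5.20 in those of *fry1-6 rdr6-11* and 4.77 and 7.68 in those of *fry1-6 rdr1-1*. In both genes the *fry1-6* libraries were the lowest of the 8, and WT replicate 1 alone was the highest. Neither was called in *fry1-6* against WT: the log2 fold change of *LDOX* was -3.07 (95% interval -4.90 to -1.23, edgeR adjusted p = 0.0785) and that of *TT19* was -1.86 (-3.36 to -0.37, adjusted p = 0.171). DESeq2 called both lower, and so did edgeR when WT replicate 2 was left out, together with *5MAT*, *TT8* and *MYB111*. Without WT replicate 1, neither was called. In *fry1-6 rdr6-11* against WT, *LDOX*, *5MAT* and *TT19* were called lower without WT replicate 2 (log2 fold changes of -1.84, -1.98 and -1.46), and without WT replicate 1 their values were 0.42, 0.54 and 0.51 and were not called. *TT19* overlaps AT5G17230 on the opposite strand, which had 169.6 to 261.2 CPM, far above *TT19* itself. The part of AT5G17230 reads in the values of *TT19* was not tested.

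*UGT79B1*, which adds xylose to anthocyanins, and *5MAT*, which adds malonate, had 0.325 to 1.20 CPM in the *fry1-6* libraries and 0.797 to 7.73 CPM in WT, with adjusted p = 0.258 and 0.248 in edgeR. Both *fry1-6* libraries were below both WT libraries for 8 of the 30 tested members, beside 19.1% of all tested genes. Of the 8 late genes, 5 (*DFR*, *LDOX*, *UGT79B1*, *5MAT* and *TT19*) were among them. AT4G14090, an anthocyanin 5-O-glucosyltransferase, had a different pattern, with 23.1 and 8.71 CPM in WT and 18.2 to 22.4 CPM in the mutants. It was called higher in every mutant when WT replicate 1 was left out, and under no other alternative. This gene overlaps AT4G14100 and AT4G06175 on the opposite strand, and strand was not stated for the counting, so reads of overlapping genes cannot be told apart.

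The bases before the start of late genes are shown because the factors of this path are known to bind G-boxes and AC-rich elements. The 250 bases upstream of *DFR* (chr5:17166033-17166282, minus strand) and *UGT79B1* (chr5:21938397-21938646, minus strand) hold the G-box CACGTG, and those of *LDOX* (chr4:12006210-12006459, minus strand) hold none of the motifs searched. Capitals mark the matches, and the sequences are from RefSeq, TAIR10.1, 5′ to 3′ on the strand of the gene.
DFR: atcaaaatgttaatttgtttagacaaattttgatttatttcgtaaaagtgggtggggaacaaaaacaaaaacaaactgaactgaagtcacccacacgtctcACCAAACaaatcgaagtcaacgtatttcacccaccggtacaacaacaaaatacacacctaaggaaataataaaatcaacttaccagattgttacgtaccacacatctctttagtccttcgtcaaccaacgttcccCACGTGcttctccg
UGT79B1: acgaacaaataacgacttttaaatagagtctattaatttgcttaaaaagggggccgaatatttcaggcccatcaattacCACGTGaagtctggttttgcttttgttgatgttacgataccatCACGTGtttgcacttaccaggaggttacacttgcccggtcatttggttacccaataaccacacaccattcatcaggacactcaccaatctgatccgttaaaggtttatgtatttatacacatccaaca
LDOX: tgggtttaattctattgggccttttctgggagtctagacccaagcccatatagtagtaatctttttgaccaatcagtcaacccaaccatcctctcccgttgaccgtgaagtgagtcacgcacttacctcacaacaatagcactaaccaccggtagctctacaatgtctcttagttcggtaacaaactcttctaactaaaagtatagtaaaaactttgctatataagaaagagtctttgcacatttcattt
The capitals in *DFR* are the AC-rich element ACCAAAC and the G-box, and those in *UGT79B1* are 2 copies of CACGTG. Searched on both strands, CACGTG was found before 8 of the 35 members (22.9%; *PAL4*, *CHS*, *F3H*, *DFR*, *UGT79B1*, *MYB90*, *MYB114* and *MYB12*) and before 6.49% of 27443 genes. At least 1 of the AC-rich elements, which are ACCTACC (type I), ACCAACC (type II), ACCTAAC (type III) and the related ACCAAAC, was found before 11 members (31.4%) and before 13.7% of all genes. These are matches of letters and not measured sites. Of the 8 members with a G-box *DFR* and *F3H* were called in a comparison, while AT1G03495, AT1G03940, *FLS1* and *MYBL2* were called and have no G-box. The late genes *5MAT* and *TT19*, like *LDOX*, hold none of the motifs searched.

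Of the early flavonoid genes none was called in *fry1-6*. *CHS*, the entry enzyme (chr5:4488476-4490264, plus strand), had 79.3 and 22.1 CPM in the WT libraries, 34.4 and 16.4 in those of *fry1-6*, 31.2 and 30.2 in those of *fry1-6 rdr6-11* and 78.4 and 41.3 in those of *fry1-6 rdr1-1*. The groups overlapped, and *CHS* was called in no comparison (adjusted p = 0.447 to 0.846 against WT in edgeR). *CHI* and *F3′H* likewise passed no test. *CHS* overlaps AT5G13940 on the opposite strand, which had 0 to 1.85 CPM. The 5 early genes had a median log2 fold change of -0.43 in *fry1-6* and of 0.09 in the *rdr1-1* double mutant, where none was called either.

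In *fry1-6 rdr6-11*, 2 of these 5 genes were called lower than in WT. *F3H*, flavanone 3-hydroxylase (chr3:19025192-19026872, plus strand), had 14.4 and 6.19 CPM in the WT libraries, 9.16 and 6.04 in those of *fry1-6*, 3.23 and 3.08 in those of *fry1-6 rdr6-11* and 12.7 and 9.13 in those of *fry1-6 rdr1-1*. *FLS1*, flavonol synthase (chr5:2803833-2805606, plus strand), had 31.8 and 9.57 CPM in the WT libraries, 13.7 and 6.04 in those of *fry1-6*, 3.82 and 4.83 in those of *fry1-6 rdr6-11* and 10.3 and 8.08 in those of *fry1-6 rdr1-1*. The *fry1-6 rdr6-11* libraries were the lowest of all for both genes, and for *FLS1* WT replicate 1 stood far above the rest. *F3H* fell by 1.70 ± 0.434 (3.25-fold lower, edgeR adjusted p = 0.0387) and *FLS1* by 2.25 ± 0.618 (4.77-fold lower, adjusted p = 0.0472) on the log2 scale. Both calls were lost without WT replicate 1 (log2 fold changes of -0.98 and -1.15, adjusted p = 0.100 and 0.140), without either *fry1-6 rdr6-11* library (adjusted p = 0.152 to 0.205) and without either *fry1-6 rdr1-1* library (0.0605 to 0.0770), and that of *F3H* also without *fry1-6* replicate 1 (0.0507). Both were lost as well in a fit of only the genotypes compared (0.0845 and 0.0867) and with scaling by total counts (0.0526 and 0.0561), so each was lost in 8 of 16 alternatives. *F3H* overlaps AT3G51238 on the opposite strand, and the 2 genes had the same count in 7 of 8 libraries with a difference of 1 in the other, so reads of the pair cannot be told apart.

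Neither gene was called against the other mutants. *F3H* in *fry1-6 rdr6-11* had a log2 difference of -1.27 from *fry1-6* (95% interval -2.30 to -0.24, edgeR adjusted p = 0.135) and of -1.79 from *fry1-6 rdr1-1* (-2.81 to -0.76, adjusted p = 0.125). DESeq2 called the second of these, as did a fit of only the genotypes compared, and edgeR called both when either WT library was left out. For *FLS1* the corresponding differences were -1.19 (adjusted p = 0.276) and -1.08 (adjusted p = 0.429).

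General phenylpropanoid genes passed in no comparison, 0 of 7 in edgeR. At an unadjusted p under 0.05 in edgeR, *C4H* was higher in *fry1-6 rdr1-1* than in WT and *fry1-6* (log2 differences of 0.93 and 0.96, adjusted p = 0.115 and 0.226). By the same measure *PAL4* was lower in *fry1-6 rdr6-11* than in WT and *fry1-6* (-0.75 and -0.83, adjusted p = 0.127 and 0.151), and *PAL2* was lower there than in *fry1-6* and *fry1-6 rdr1-1* (-0.88 and -1.14, adjusted p = 0.175 and 0.187). *C4H* was called higher in *fry1-6 rdr1-1* than in WT when replicate 2 of that double mutant was left out. In *fry1-6 rdr6-11*, *PAL4* and *4CL3* were called lower than in WT without WT replicate 2 (-1.07 and -1.68, adjusted p = 0.0477 and 0.0347), and *PAL2* was called lower than in *fry1-6 rdr1-1* in a fit of only those genotypes. *PAL1* and *PAL2*, the main phenylalanine ammonia-lyases, ranged from 48.8 to 133.1 and from 37.6 to 101.1 CPM, and the lowest value of *PAL2* was in *fry1-6 rdr6-11*. The *4CL1* gene, which activates coumarate and is on the siRNA list, had 31.5 to 96.7 CPM, both in WT. Its log2 fold changes against WT were 0.19, -0.02 and 0.51 (edgeR adjusted p = 0.896, 0.981 and 0.574), so it was not called as the listed acyltransferases were. Without WT replicate 1 they were 1.21, 0.998 and 1.53. Without WT replicate 2 they were -0.41 in *fry1-6* and -0.619 in *fry1-6 rdr6-11*. Whether *4CL1* rose thus depended on the WT library. *4CL1* too overlaps a gene on the opposite strand. Summed, the 7 genes had 388.5 and 206.5 CPM in WT and 265 to 531.6 CPM in the mutants.

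The flavonol glycosyltransferases were not called either. *UGT78D2*, which adds glucose to flavonols and anthocyanins, had 7.15 to 19.4 CPM, *UGT78D1*, which adds rhamnose, had 11.1 to 50.9 CPM, and both had their highest value in WT replicate 1. *UGT78D3*, which adds arabinose, had 0 to 7 counts per library and was not tested.

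**Figure D4:**
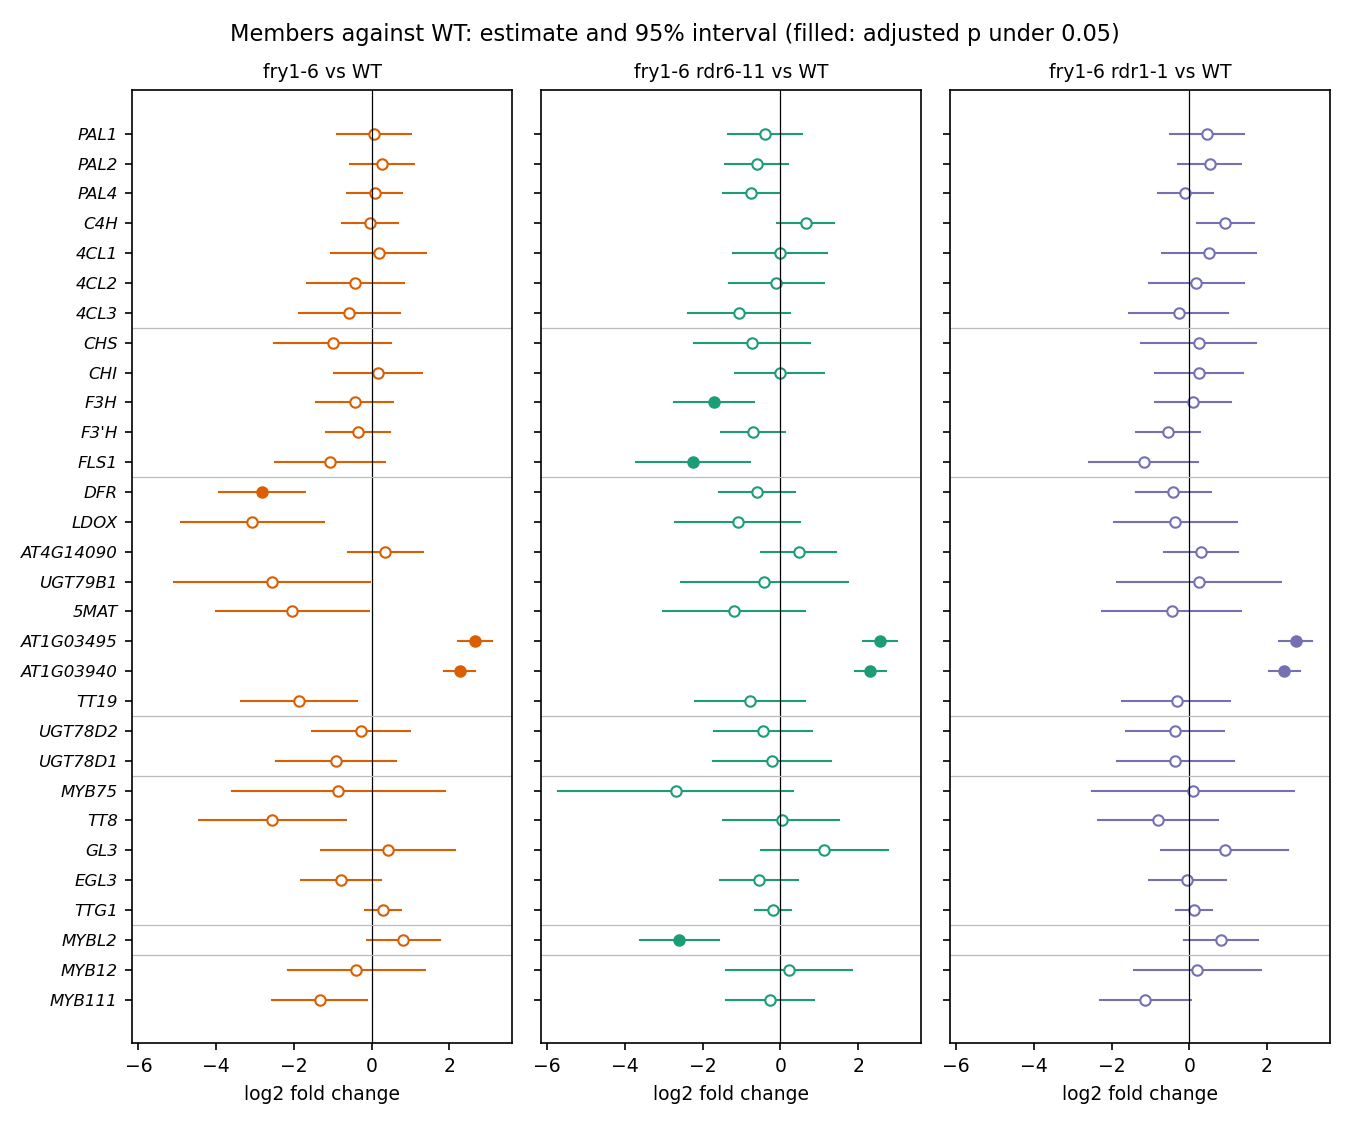
Log2 fold change of each tested member against WT in the 3 mutant genotypes (points) with 95% intervals from edgeR (bars), grouped by role; filled points have an adjusted p under 0.05. The filled points are AT1G03495 and AT1G03940 in all panels, *DFR* in *fry1-6*, and *F3H*, *FLS1* and *MYBL2* in *fry1-6 rdr6-11*.

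*MYBL2*, the repressor of the anthocyanin complex (chr1:26795052-26796532, minus strand, 2 exons), had the largest difference between the double mutants of any member. Its level was 75.8 and 52.3 CPM in the WT libraries, 147.2 and 79.1 in those of *fry1-6*, 13.9 and 7.26 in those of *fry1-6 rdr6-11* and 105.1 and 120.2 in those of *fry1-6 rdr1-1*. Both *fry1-6 rdr6-11* libraries lay far below the other 6, and the *fry1-6* and *fry1-6 rdr1-1* libraries lay above WT. In *fry1-6 rdr6-11* the transcript fell by 2.60 ± 0.424 against WT (6.06-fold lower, edgeR adjusted p = 0.0105), by 3.42 ± 0.437 against *fry1-6* (10.7-fold lower, adjusted p = 0.0164) and by 3.41 ± 0.437 against *fry1-6 rdr1-1* (10.7-fold lower, adjusted p = 0.0297), on the log2 scale. The higher levels in *fry1-6* and *fry1-6 rdr1-1* were not called (log2 fold changes of 0.82 and 0.82 against WT, adjusted p = 0.336 and 0.247). Per kilobase of exon its mean level was 7.57 CPM per kb in *fry1-6 rdr6-11* and 81.1 and 80.7 CPM per kb in *fry1-6* and *fry1-6 rdr1-1*.

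The fall of *MYBL2* against WT was kept without either WT library (log2 fold changes of -2.31 and -2.84) and was lost only without *fry1-6 rdr6-11* replicate 2 (-2.22, adjusted p = 0.0736). Against *fry1-6* it was lost without *fry1-6* replicate 1 (-2.91, adjusted p = 0.0646) and without either *fry1-6 rdr6-11* library (adjusted p = 0.0987 and 0.166). Against *fry1-6 rdr1-1* it was lost without any 1 of the 6 mutant libraries (adjusted p = 0.0565 to 0.337), with the log2 difference between -3.00 and -3.93. DESeq2 called all 3.

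The activators of the anthocyanin complex were low and varied within genotypes. *MYB75* had 4.44 and 0.307 CPM in the WT libraries (62 and 5 counts), 1.94 and 0.650 in those of *fry1-6*, 0.255 and 0.460 in those of *fry1-6 rdr6-11* and 1.11 and 3.88 in those of *fry1-6 rdr1-1*. The libraries of WT differed from each other more than any genotype means did, and *MYB75* was called in no comparison of all 8 libraries (log2 fold change -2.70 in *fry1-6 rdr6-11* against WT, 95% interval -5.71 to 0.32, edgeR adjusted p = 0.179). It was called lower there without WT replicate 2 (-3.62, adjusted p = 0.0448) and was at 0.20 without WT replicate 1 (adjusted p = 0.927). Its relatives were near the limit of detection at this depth: *MYB90* had 0 to 6 counts per library, *MYB114* had 1 to 4, and *MYB113* had 0 to 4 with 6 libraries at 0, so none was tested.

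*TT8*, the bHLH partner that is itself a target of the complex, had 1.93 and 0.491 CPM in the WT libraries, 0.201 and 0.195 in those of *fry1-6*, 1.06 and 1.38 in those of *fry1-6 rdr6-11* and 0.509 and 0.848 in those of *fry1-6 rdr1-1*. The *fry1-6* libraries had 3 counts each and were the lowest of the 8, as for *DFR* and *LDOX*, and the gene was not called (adjusted p = 0.142 against WT and 0.104 for *fry1-6 rdr6-11* against *fry1-6* in edgeR). When either WT library was left out, *TT8* was called higher in *fry1-6 rdr6-11* than in *fry1-6*, together with *DFR* and *LDOX*. *GL3*, *EGL3* and *TTG1* were called in no comparison of all 8 libraries, and *TTG1* had 30.3 to 48.4 CPM. *GL3* was called higher in *fry1-6 rdr6-11* than in WT only when WT replicate 1 was left out, which leaves a WT library with 3 counts of it. It overlaps another gene that had at most 0.0850 CPM.

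Among the activators of flavonol genes, *MYB111* had 4.08 and 1.47 CPM in the WT libraries, 1.14 and 1.04 in those of *fry1-6*, 2.04 and 2.57 in those of *fry1-6 rdr6-11* and 1.3 and 1.21 in those of *fry1-6 rdr1-1*. It was not called (log2 fold change -1.34 in *fry1-6*, 95% interval -2.55 to -0.13, edgeR adjusted p = 0.220). *MYB12* had 0.245 to 1.00 CPM, both in WT, and *MYB11* had 0 to 8 counts with 5 libraries at 0.

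**Figure D5:**
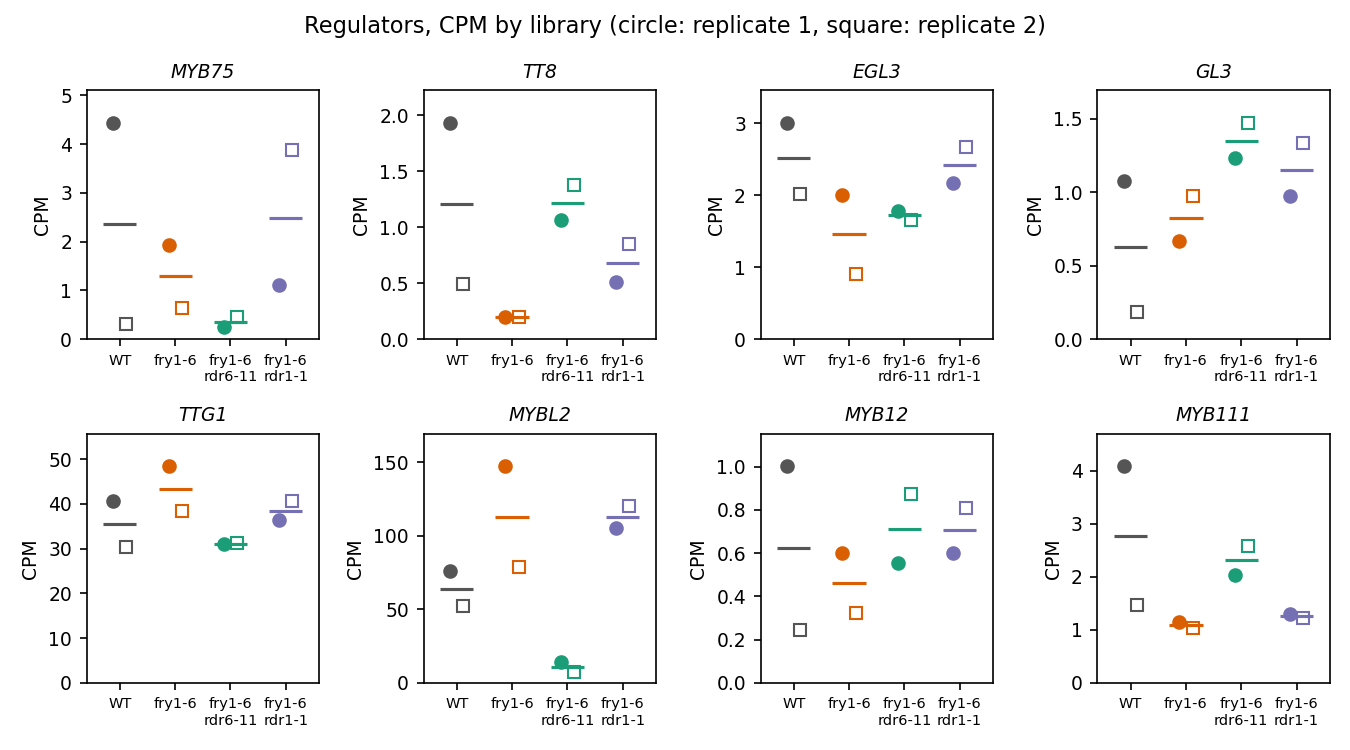
CPM of 8 regulators in each library, with circles for replicate 1, squares for replicate 2 and horizontal lines for the mean of 2 libraries. *MYBL2* is at 13.9 and 7.26 CPM in *fry1-6 rdr6-11* and at 52.3 or more elsewhere, while the WT values of *MYB75* and *TT8* are far apart.

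Of 41 other genes of the pathway and its control, all were tested and 0 were called in *fry1-6* against WT in edgeR, where 5.42% of all genes passed. In *fry1-6 rdr6-11* 7 were called against WT (1 higher, 6 lower; 17.1%, beside 18.9% of all genes), and in *fry1-6 rdr1-1* 1 was called. *KMD3*, a Kelch F-box gene that is also on the siRNA list and whose protein marks PAL for degradation, was higher in both double mutants, with 24.3 and 30.2 CPM in the WT libraries, 43.3 and 36.7 in those of *fry1-6*, 45.5 and 40.6 in those of *fry1-6 rdr6-11* and 75.5 and 81.2 in those of *fry1-6 rdr1-1* (log2 fold changes of 0.66 and 1.52, adjusted p = 0.0402 and 0.00600). The 6 lower genes were *PAL3*, the sinapoyltransferase genes *SNG1* and *SCPL10*, the F-box genes *KFB20* and AT1G23390, and *SPA1*, a partner of the light-signalling repressor COP1. Of these 7 calls in *fry1-6 rdr6-11*, those of *KMD3*, *PAL3* and *SPA1* were lost without WT replicate 1 (edgeR adjusted p = 0.115, 0.0720 and 0.123) and those of *SNG1*, *KFB20* and AT1G23390 without WT replicate 2 (0.0713, 0.103 and 0.114). *SCPL10* was called without either, and so was *KMD3* in *fry1-6 rdr1-1*.

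*SCPL10*, the enzyme that attaches sinapate to anthocyanins, was lowest in *fry1-6 rdr6-11* as *MYBL2* was, with 12.0 and 6.56 CPM in the WT libraries, 17.1 and 11.6 in those of *fry1-6*, 2.72 and 2.34 in those of *fry1-6 rdr6-11* and 23.6 and 18.7 in those of *fry1-6 rdr1-1*. It was lower in *fry1-6 rdr6-11* than in WT, *fry1-6* and *fry1-6 rdr1-1* (log2 fold changes of -1.87, -2.50 and -3.06, edgeR adjusted p = 0.0159, 0.0218 and 0.0290), as was *SNG1*, which makes sinapoylmalate (-0.82, -1.04 and -1.39, adjusted p = 0.0279, 0.0358 and 0.0313). *KFB20* had 209.0 and 444.3 CPM in WT and 136.3 and 78.0 in *fry1-6 rdr6-11* (log2 fold change -1.61, adjusted p = 0.0399), and *KFB50*, an F-box gene on the siRNA list, had 218.0 and 374.5 CPM in WT and 178.4 and 125.5 in *fry1-6 rdr6-11* and was not called. The leaf marker *LHCB1.3*, also on the siRNA list, moved with these genes, at 10720 to 21440 CPM in the other libraries and at 5782 and 4782 CPM in *fry1-6 rdr6-11* (log2 fold change -1.51, adjusted p = 0.0249 against WT, and 0.0556 without WT replicate 1), and its part in the result was not tested. The other 4 leaf markers were not called in any comparison with WT.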

How the data were processed

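RNA-seq counts of 8 libraries were analysed. The authors mapped paired-end reads to Araport11 with STAR 2.6, allowing several positions and reporting 1, counted them per gene with featureCounts 1.6.4 and compared genotypes with DESeq2. The deposited values are these raw counts, with no normalization, beside the exon length of each gene. The strand setting is not given in the sources used here, and the labels and the methods name different library kits.

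Genes were filtered with filterByExpr (minimum count 10, minimum total 15), scaled by TMM and fitted with edgeR 4.0.16 (limma 3.58.1, R 4.3.3) over all 8 libraries, with genotype as the only term. Tests were two-sided quasi-likelihood F-tests, adjusted by the Benjamini-Hochberg method over 22744 genes. The model left 4 residual degrees of freedom. The common dispersion was 0.0727 (a biological coefficient of variation of 27%), and no source states whether the 2 libraries of a genotype came from separate plants, so p-values measure only the spread between them, which may be technical. SE values are the log2 fold change divided by the square root of F, and intervals use the t quantile of the fit. In simulated counts for *fry1-6* against WT (22457 genes, 200 changed), 71% of 4-fold and 7% of 2-fold changes were recovered, with 2 false calls. Depth was 15069329 to 26285519 counts a library, and 3 counts were worth 0.121 to 0.215 CPM.

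Positions, overlaps and sequences are from RefSeq, TAIR10.1, read with Python 3.11.15. Alternatives were DESeq2 1.42.0, its size factors, total counts, no filter on low genes, a minimum of 10 counts in each library, the replicate number as a block, a fit of only the genotypes compared, no organelle genes, each library left out, and, chosen after seeing the data, the sum of AT1G03495 and AT1G03940 and a block fit of only WT and *fry1-6*. The members, the other lists and the genes named were chosen with earlier results of these data known. Any member could be named. Values in every library were planned for members called in a comparison, AT1G03495, AT1G03940, *MYB75*, *MYB90*, *MYB113*, *MYB114*, *TT8*, *MYBL2*, *CHS*, *FLS1*, *DFR*, *LDOX* and *TT19*. Other genes named are the mutated genes, *KFB50* and genes of the other lists that were called, with values for at most 8. *MYB111* and AT4G14090 were added after their values were seen. The result of 1 further marker is not reported here.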

Additional observations from a re-analysis of the deposited data

Results flagged for a closer look

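The effect of adding an RDR mutation to *fry1-6* on *MYBL2* differed between *rdr6-11* and *rdr1-1* in the direct test: the log2 difference of *fry1-6 rdr6-11* minus *fry1-6 rdr1-1* was -3.41 ± 0.437 (edgeR adjusted p = 0.0297), with 13.9 and 7.26 CPM against 105.1 and 120.2 CPM. Both libraries of *fry1-6 rdr6-11* were below both of *fry1-6 rdr1-1*, which held for 15 of the 30 tested members, so this order is not particular to *MYBL2*. The share over all tested genes is not given here. The call was lost when any 1 of the 6 mutant libraries was left out (adjusted p = 0.0565 to 0.337).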

How the results depend on the processing

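In none of the 16 alternatives run for each comparison did a called member change direction. A fit of only the genotypes compared called 0 members in *fry1-6* against WT, where edgeR called 0 of 21585 genes, 3 in *fry1-6 rdr6-11* against WT (8.24% of all genes) and 3 in *fry1-6 rdr6-11* against *fry1-6 rdr1-1* (4.95%). DESeq2 called 5 in *fry1-6* against WT (7.70% of the genes given an adjusted p), 2 in *fry1-6 rdr1-1* against *fry1-6* (*DFR* and *LDOX*, both higher; 2.92%) and 2 between the double mutants (5.35%). Leaving out each library in turn gave 2 to 8 members in *fry1-6*, 2 to 12 in *fry1-6 rdr6-11* and 2 to 3 in *fry1-6 rdr1-1* against WT, 0 to 5 and 0 to 1 for the *rdr6-11* and the *rdr1-1* double mutant against *fry1-6*, and 0 to 2 between the double mutants. The counts of 8 and 12 came without WT replicate 2, where 3.88% and 16.6% of all genes were called, and in the 12 *PAL4*, *4CL3*, *DFR*, *LDOX*, *5MAT*, *TT19* and *MYB75* were added to the 5, all lower. These fits assume that a lone library varies like the other genotypes. The share of all genes is not given beside the other counts from these fits, so those counts cannot be weighed here. With the replicate number as a block, 1 member in place of 2 was called in *fry1-6 rdr6-11* against *fry1-6* (*DFR* was lost), and no other call of a member changed. Deviations of libraries with the same number correlated by 0.727 between WT and *fry1-6* over all genes, and by -0.284 to 0.194 between the other pairs of genotypes, so the number went with a shared difference in WT and *fry1-6* but does not pair all 4 genotypes. A fit of only WT and *fry1-6* with the replicate block, added after seeing the data and left with 1 residual degree of freedom, called 7 members (11.9% of all genes): AT1G03495, AT1G03940 and *MYBL2* higher, and *DFR*, *LDOX*, *UGT79B1* and *FLS1* lower. Scaling by total counts moved the median log2 fold change of all genes in *fry1-6 rdr6-11* against WT from 0.04 to 0.41, and *F3H* and *FLS1* were then not called (-1.32 and -1.86, or -1.73 and -2.27 relative to that shift) while *C4H* was called higher. *FLS1* was also lost with at least 10 counts in every library. The cause of these changes was not tested. No alternative other than the fit of only WT and *fry1-6* without the block removed a call of AT1G03495 or AT1G03940.

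Depth limits what can be said of *MYB90*, *MYB113*, *MYB114*, *MYB11* and *UGT78D3*, which had at most 8 counts in any library, and of *TT8* and *MYB75*. Intervals cover the spread of 2 libraries a genotype.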
